A study of Mus musculus with 9 samples.

Results

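Hepcidin and the genes of iron handling were described in liver as 10 genes of the deposited table: Hamp, Hamp2, Bmp6, Hfe, Tfr2, Tfrc, Trf, Slc40a1, Fth1 and Ftl1. They were taken by gene name, and each name matched 1 row of the 21873 genes in the table, so that 10 of 21873 genes were members. Liver mRNA of 9 male C57BL/6 mice, 8 weeks old at the start, had been sequenced in a study of liver fibrosis and its spontaneous reversal, with 3 mice in each of 3 groups. The TAA group was injected intraperitoneally with thioacetamide, a hepatotoxin that causes fibrosis, at 200 mg/kg every 3 days for 8 weeks, and the control group was given saline instead. Livers of both groups were collected 72 h after the last injection. The recovery group was given the same 8 weeks of thioacetamide and was then left without injections for another 8 weeks, so these mice were older than the others, and an age-matched control was not analysed here. The effects of age and of recovery on the recovery group therefore cannot be told apart. The 3 comparisons shared their groups, and values were set side by side for that reason.

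Hepcidin is a peptide hormone of the hepatocyte that binds ferroportin, the only known iron exporter of mammalian cells, and causes its degradation, so that less iron leaves enterocytes and macrophages for the plasma. Its transcription is controlled by iron through BMP ligands from sinusoidal endothelial cells, their receptors and SMAD proteins on hepatocytes, with HFE, transferrin receptor 2 and hemojuvelin as helpers and the protease TMPRSS6 as an inhibitor. Inflammation raises it through IL-6 and STAT3, and iron also acts on mRNAs through iron regulatory proteins that bind hairpins called iron responsive elements.

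Values were FPKM (fragments counted for a gene, relative to its length and to the mapped fragments of the library), divided by a median-of-ratios scaling factor for each library. This scaling mattered. The factors were 0.827 to 0.878 for control, 1.29 to 1.38 for TAA and 0.893 to 0.907 for recovery libraries. The median log2 fold change over the 14094 tested genes was 0.02 in TAA against control after scaling and 0.63 in FPKM as deposited. A difference is therefore given relative to the median gene, and members whose direction depended on this choice are named. Fold changes were on the scale of log2(scaled FPKM + 0.1), and a gene passed at a Benjamini-Hochberg adjusted p under 0.05 in limma across all 14094 tested genes. A gene that passed with a fold change of at least 2 was called a DEG, a differentially expressed gene.

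Several libraries stood apart from their groups. Control 1 had a lower sum of 6 Kupffer cell markers than the other controls, with scaled FPKM sums of 41.9, 112 and 117 in the 3 control libraries. Control 3 held far more of the acute phase gene Saa1, at scaled FPKM of 55.1, 121 and 639 in the 3 control libraries. TAA 3 carried skeletal muscle transcripts, with a summed scaled FPKM of 6 muscle genes of 0.389, 0.209 and 36.6 in the 3 TAA libraries. TAA 2 was low in haemoglobin transcripts, and TAA 1 was high in Hamp2, as given below. In control 1 the sum of 6 recruited macrophage markers was also higher than in the other controls, at 52.5, 18.3 and 22.5 in the 3 control libraries. The part of these libraries in the results is given by leaving each of them out, and a library is named wherever that changed the call of a member.

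All 10 members passed the filter on low values. In TAA against control, 2 members were higher (Hamp and Hamp2) and 3 were lower (Tfr2, and Hfe and Ftl1, whose direction turned in FPKM as deposited), while 28.2% of all tested genes were higher and 26.3% were lower. Of the members 3 were DEGs (Hamp, Hamp2 and Tfr2), against 25.0% of all tested genes. Tfr2 was no DEG under the other 3 scalings, where it passed at a fold change under 2. Its log2 fold change was -0.82 in FPKM as deposited, -0.84 with quantile normalization and -0.63 with equal column sums. In recovery against TAA, 4 members were higher (Tfr2, and Hfe, Slc40a1 and Fth1, whose direction turned in FPKM as deposited), against 24.5% of tested genes, and Hamp2 was lower, against 26.0%. Hamp2 and Tfr2 were DEGs there, against 21.4%, but Tfr2 again only after the main scaling (0.52, 0.56 and 0.32 under the others, in the same order). In recovery against control 0 of the 10 members passed in limma, against 1.33% of tested genes higher, 1.38% lower and 0.993% DEGs, and 4 members (Hamp, Bmp6, Tfr2 and Fth1) had an unadjusted p under 0.05, as had 23.0% of all tested genes. That 0 became 1 with a filter at a mean FPKM of 1, 2 with quantile normalization and 2 with all 9 libraries in 1 fit. Of all tested genes 381 of 14094 passed at first, and 557 of 11101, 440 of 14094 and 855 of 14094 under these alternatives. These shares were not tested against those of all genes.

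**Figure D1:**
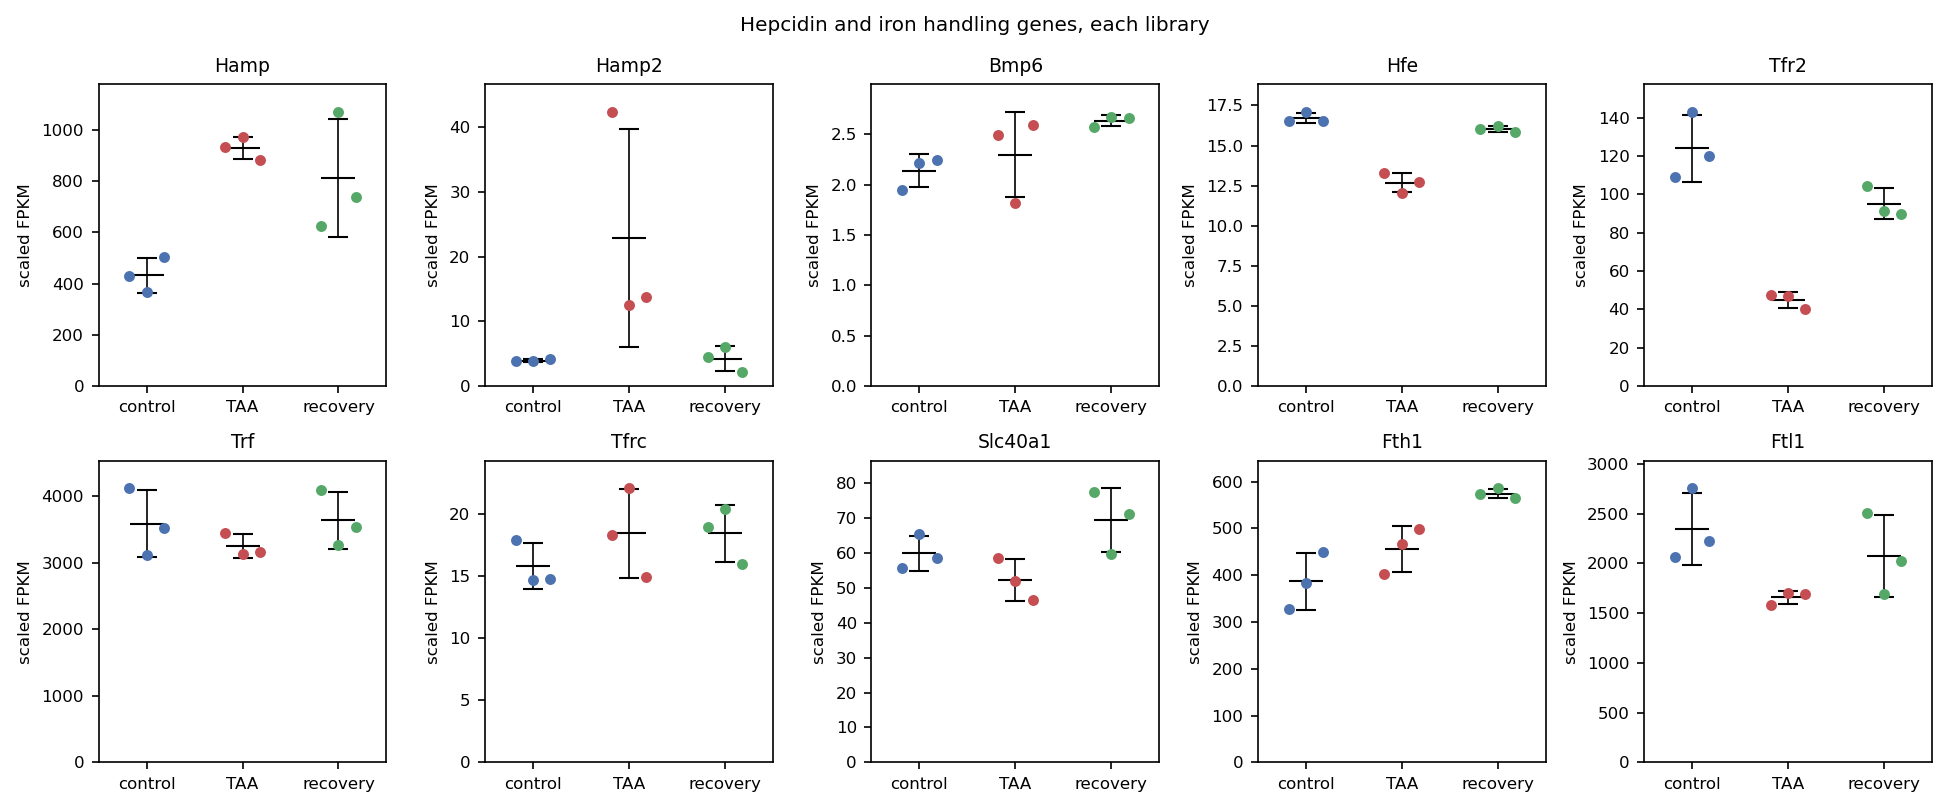
Scaled FPKM of the 10 members in each library (points; bars are the mean and SD), with 1 panel per gene and a vertical axis from 0. The 3 TAA libraries lie above all control libraries for Hamp and Hamp2 and below them for Tfr2, and also for Hfe and Ftl1, whose direction turned in FPKM as deposited.

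The promoters of both hepcidin genes are shown because Hamp and Hamp2 were the members with the largest increases in the TAA group. They are the 250 bases before the transcription start, from RefSeq on GRCm38.p6, both on the minus strand: Hamp at chr7:30944030-30944279 and Hamp2 at chr7:30924182-30924431. Capitals mark GGCGCC, known from hepcidin promoters as a BMP responsive element, and TTCTTGGAA, known from them as a STAT site, together with the bases of Hamp2 that align to them. In GENCODE release 21, 2 of the 3 Hamp2 transcripts start at chr7:30924181, directly after this window, and 1 other model with an incomplete start reaches chr7:30924681, so that the window lies inside that model. For Hamp that release gives a start at chr7:30944032, just inside the window shown. Distances are counted from the RefSeq starts.
Hamp: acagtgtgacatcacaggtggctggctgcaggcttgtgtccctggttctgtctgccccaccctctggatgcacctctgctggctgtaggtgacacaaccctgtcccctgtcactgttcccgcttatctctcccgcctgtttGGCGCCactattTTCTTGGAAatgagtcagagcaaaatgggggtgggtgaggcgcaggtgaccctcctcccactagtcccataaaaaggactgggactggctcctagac
Hamp2: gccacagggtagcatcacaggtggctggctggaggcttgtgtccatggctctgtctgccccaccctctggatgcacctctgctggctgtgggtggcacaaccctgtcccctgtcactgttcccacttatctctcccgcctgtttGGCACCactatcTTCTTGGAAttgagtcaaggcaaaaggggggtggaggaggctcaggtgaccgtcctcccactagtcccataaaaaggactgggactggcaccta
In an alignment of both windows, 227 of 247 aligned bases were identical (91.9%). GGCGCC lay 109 to 104 bases before the start of Hamp. At the aligned place Hamp2 differed by G4A, counted from 1 at the 5′ end of GGCGCC, so that these letters were not in its window. TTCTTGGAA was in both windows, 97 to 89 bases before the start of Hamp and 94 to 86 bases before that of Hamp2. Searched on both strands in all 32851 promoter windows of this length, GGCGCC was in 3149 (9.59%) and TTCTTGGAA in 120 (0.365%), and 3 windows held both. Promoter windows were found for 8 of the 10 members, and Slc40a1 and Trf are named only. Besides Hamp, GGCGCC was in 1 window of Tfrc.

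Hamp encodes hepcidin. In scaled FPKM it stood at 428, 368 and 503 in control, 934, 971 and 884 in TAA and 626, 1071 and 738 in recovery libraries. All TAA libraries and all recovery libraries were above all control libraries, and the recovery libraries spread around the TAA libraries. The means were 433 ± 67.8, 929 ± 44.0 and 812 ± 231 in the same order (mean ± SD, n = 3). Hamp was 2.16-fold higher in TAA against control (log2 fold change 1.11, 95% confidence interval 0.79 to 1.43, adjusted p = 0.000409), with the same direction in all alternatives. By mean scaled FPKM it was the gene of rank 136 in control, 23 in TAA and 67 in recovery libraries. Ranks also moved up from control to TAA for members that were not higher after scaling, as for Ftl1 (26 and 8) and Slc40a1 (884 and 699). Those of Bmp6, Hfe and Tfr2 moved down. Recovery against control was 1.84-fold and did not pass (log2 fold change 0.88, 95% confidence interval 0.36 to 1.41, adjusted p = 0.0854). It passed when all 9 libraries shared 1 fit (adjusted p = 0.0307) and with quantile normalization (adjusted p = 0.0480). Recovery against TAA did not pass either (log2 fold change -0.23, 95% confidence interval -0.68 to 0.22, adjusted p = 0.354). Without recovery 2, the highest recovery library, it passed as lower in recovery, with a log2 fold change of -0.45 and an adjusted p of 0.0366, and it also passed as lower under the other 3 scalings.

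Hamp2 is the second hepcidin gene of the mouse. Libraries held it at a scaled FPKM of 3.80, 3.84 and 4.14 in control, 42.4, 12.5 and 13.8 in TAA and 4.44, 6.03 and 2.12 in recovery libraries. TAA 1 was about 3 times the other TAA libraries, but the lowest TAA library was still above every control and recovery library, whereas control and recovery overlapped. Hamp2 was 4.85-fold higher in TAA against control (log2 fold change 2.28, 95% confidence interval 1.29 to 3.26, adjusted p = 0.00290) and 4.93-fold lower in recovery against TAA (log2 fold change -2.30, 95% confidence interval -3.50 to -1.102, adjusted p = 0.00736). Without TAA 1 these log2 fold changes were 1.72 and -1.74, with adjusted p of 0.000164 and 0.0117. Recovery against control gave -0.025 (95% confidence interval -0.87 to 0.82, adjusted p = 0.978), with the other sign in FPKM as deposited (0.049).

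The split of reads between the hepcidin genes was uncertain. The table placed Hamp at chr7:30922372-30944649 and Hamp2 at chr7:30922372-30944032 on mm10, loci that overlap and that each span both genes, whereas GENCODE release 21 places Hamp at chr7:30942368-30944032 and Hamp2 at chr7:30922372-30924681. A long noncoding gene on the opposite strand, Gm44662, spans both, and whether strand was used in counting is not given in the sources used here. The transcripts of Hamp and Hamp2, of 410 and 420 bases were 94.9% identical over 410 aligned bases. Hamp2 was a small share of Hamp, with FPKM of 0.888, 1.04 and 0.824% of that of Hamp in the control libraries, 4.54, 1.29 and 1.56% in the TAA libraries and 0.710, 0.563 and 0.287% in the recovery libraries. The 3 groups did not overlap in this ratio, which a common factor for all genes of a library leaves as it is: it was highest in TAA and lowest in recovery libraries, but with quantile normalization TAA libraries overlapped both other groups. The differences in mean log2 ratio were 1.16 in TAA against control, -2.07 in recovery against TAA and -0.91 in recovery against control, each with an exact two-sided permutation p of 0.1, the smallest that 3 against 3 can give (0.12 adjusted over 12 ratio comparisons). With quantile normalization they were 0.10, -1.06 and -0.96 (exact permutation p = 1, 0.2 and 0.1), so that the difference between TAA and control rested on the scaling. Without TAA 1 the first was 0.61.

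Bmp6 encodes the main iron-responsive BMP ligand, made in the liver by endothelial cells. It was found at 1.95, 2.21 and 2.25 in control, 2.49, 1.81 and 2.59 in TAA and 2.57, 2.68 and 2.66 in recovery libraries (scaled FPKM). TAA 2 was below all control libraries and the other TAA libraries were above them, while all recovery libraries were above all control libraries. No comparison passed: the log2 fold changes were 0.088 in TAA against control (adjusted p = 0.685), 0.21 in recovery against TAA (adjusted p = 0.316) and 0.29 in recovery against control (adjusted p = 0.197). In TAA against control it passed at 0.70 in FPKM as deposited, close to the 0.63 of the median gene, and the sign turned with quantile normalization (-0.23). The sign of recovery against TAA turned in FPKM as deposited (-0.34), and with equal column sums it passed as lower in recovery (-0.53, adjusted p = 0.0200). Its locus is chr13:38345107-38500302. The ratio of Hamp to Bmp6 within a library was 219.6, 166 and 224 in the control libraries, 375, 536 and 341 in the TAA libraries and 243, 400.2 and 278 in the recovery libraries. Control libraries lay below all others, by 1.03 in mean log2 ratio against the TAA group and by 0.59 against the recovery group (exact permutation p = 0.1 for both). TAA and recovery overlapped (-0.44, exact permutation p = 0.3). With quantile normalization the 3 differences were 2.58, 0.69 and -1.89 in the order given, and TAA and recovery did not overlap.

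Tfr2 encodes transferrin receptor 2, a sensor of iron-loaded transferrin on hepatocytes. Its scaled FPKM was 109, 143 and 119.9 in control, 47.7, 46.9 and 40.1 in TAA and 104, 91.5 and 89.7 in recovery libraries. The groups did not overlap: the TAA libraries were lowest, and the recovery libraries lay between them and the controls. Tfr2 was 2.75-fold lower in TAA against control (log2 fold change -1.46, 95% confidence interval -1.75 to -1.17, adjusted p = 7.32e-05) and 2.12-fold higher in recovery against TAA (log2 fold change 1.08, 95% confidence interval 0.84 to 1.33, adjusted p = 0.000130). Both calls and directions held under every scaling, at -0.82 and 0.52 in FPKM as deposited, and without any single library. Recovery against control did not pass (log2 fold change -0.38, 95% confidence interval -0.66 to -0.092, adjusted p = 0.135). The gene is at chr5:137569840-137587481.

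Hfe encodes the membrane protein HFE, which binds transferrin receptors and takes part in iron sensing. Values of scaled FPKM were 16.5, 17.1 and 16.5 in control, 13.3, 12.1 and 12.7 in TAA and 16.04, 16.2 and 15.8 in recovery libraries. The TAA libraries were all below the others, and the recovery libraries lay just under the controls. Relative to the median gene Hfe was 1.32-fold lower in TAA against control (log2 fold change -0.40, 95% confidence interval -0.59 to -0.21, adjusted p = 0.00476) and 1.26-fold higher in recovery against TAA (log2 fold change 0.34, 95% confidence interval 0.14 to 0.53, adjusted p = 0.0110), but both passed in the other direction in FPKM as deposited (0.24 and -0.22, adjusted p = 0.0356 and 0.0451) and with equal column sums (0.43 and -0.42, adjusted p = 0.00239 and 0.00279), and neither passed with quantile normalization (adjusted p = 0.138 and 0.224). The table gave Hfe the locus chr13:23697635-23761191, wider than the chr13:23702034-23710854 of GENCODE release 21. Recovery against control was -0.059 (adjusted p = 0.613), with the other sign in FPKM as deposited (0.017).

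**Figure D2:**
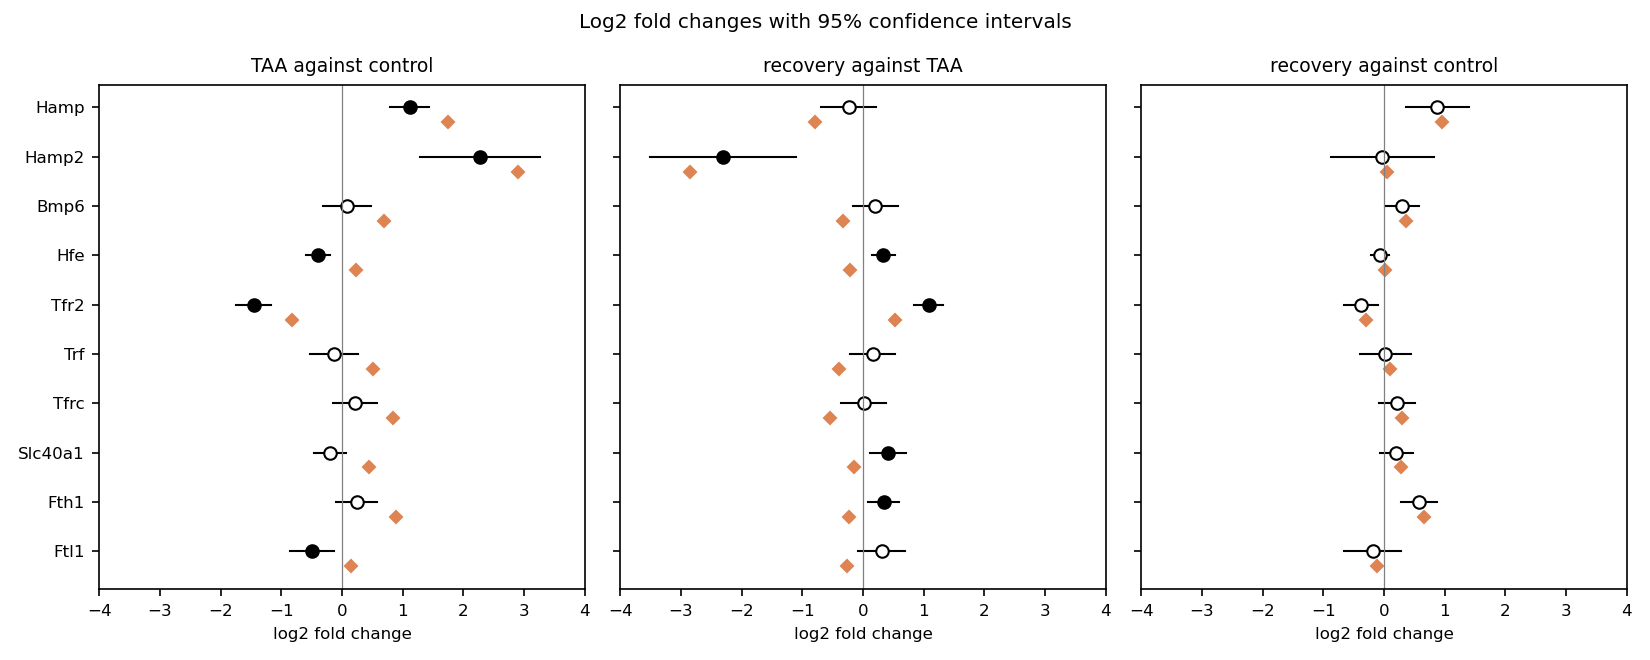
Log2 fold change of the 10 members in the 3 comparisons, with circles for values after scaling (95% confidence intervals from limma, filled where the gene passed) and diamonds for FPKM as deposited. Hamp, Hamp2 and Tfr2 lie on the same side of 0 under both in TAA against control, while Hfe, Trf, Slc40a1 and Ftl1 change sides.

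Genes known as BMP-SMAD targets were counted from a list of 5, Id1, Id3, Smad6, Smad7 and Atoh8. In TAA against control 4 of the 5 were higher and Atoh8 did not pass, with a median log2 fold change of 0.79 against 0.02 over all tested genes. Atoh8 was at 0.29 (adjusted p = 0.150), but it passed as higher in FPKM as deposited (0.92, adjusted p = 0.00222) and with equal column sums (1.103, adjusted p = 0.000648), which made 5 of 5. Most tested genes were also higher under these alternatives, 8764 of 14094 in FPKM as deposited and 10173 of 14094 with equal column sums, against 28.2% after the main scaling. Id1, an inhibitor of DNA binding that is a classical SMAD target, had a scaled FPKM of 5.65, 7.14 and 6.85 in control, 16.5, 21.1 and 20.3 in TAA and 5.55, 10.1 and 6.41 in recovery libraries. The TAA libraries were above all others, and it was 2.92-fold higher than in controls (log2 fold change 1.54, 95% confidence interval 1.23 to 1.86, adjusted p = 8.00e-05). Id3, its paralog, had 9.73, 19.3 and 16.6 in control, 36.5, 39.5 and 39.6 in TAA and 25.8, 29.8 and 21.5 in recovery libraries, and was 2.62-fold higher in TAA against control (adjusted p = 0.00172). For Id3 the 3 groups did not overlap, with recovery in between. The inhibitory SMAD genes Smad6 and Smad7 were 1.70-fold and 1.72-fold higher in TAA against control (adjusted p = 0.00501 and 0.00136). The calls of Id1, Id3, Smad6 and Smad7 held under all 4 scalings and without any single library. Which cells held these mRNAs is not known from bulk tissue. The part of cell types, or of signals other than BMP, in these values was not tested.

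In recovery against TAA, Id1, Id3 and Smad6 were lower, by 2.67-fold, 1.51-fold and 1.65-fold (adjusted p = 0.00117, 0.00539 and 0.00532). Smad7 stood at 6.12 ± 0.287 in control, 10.7 ± 1.502 in TAA and 9.21 ± 1.74 in recovery libraries (scaled FPKM, mean ± SD, n = 3), and recovery against TAA did not pass (log2 fold change -0.22, adjusted p = 0.309), but it passed as lower in FPKM as deposited (-0.78, adjusted p = 0.00537) and with equal column sums (-0.98, adjusted p = 0.00172). After scaling its recovery libraries overlapped the TAA libraries and were all above the controls. Atoh8, a transcription factor gene that responds to BMP and iron, had 5.74, 7.34 and 6.64 in control, 6.78, 7.90 and 9.55 in TAA and 10.1, 9.81 and 10.2 in recovery libraries. Its recovery mean was the highest after scaling, but recovery against TAA did not pass (log2 fold change 0.32, adjusted p = 0.0750). That comparison had the other sign in FPKM as deposited (-0.23) and passed as lower with equal column sums (-0.43, adjusted p = 0.0340). Without TAA 3 it passed as higher (0.45, adjusted p = 0.0171). Atoh8 passed as higher in recovery against control (log2 fold change 0.61, adjusted p = 0.0439), a call lost when any 1 of the 6 libraries was left out (adjusted p 0.0649 to 0.138).

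**Figure D3:**
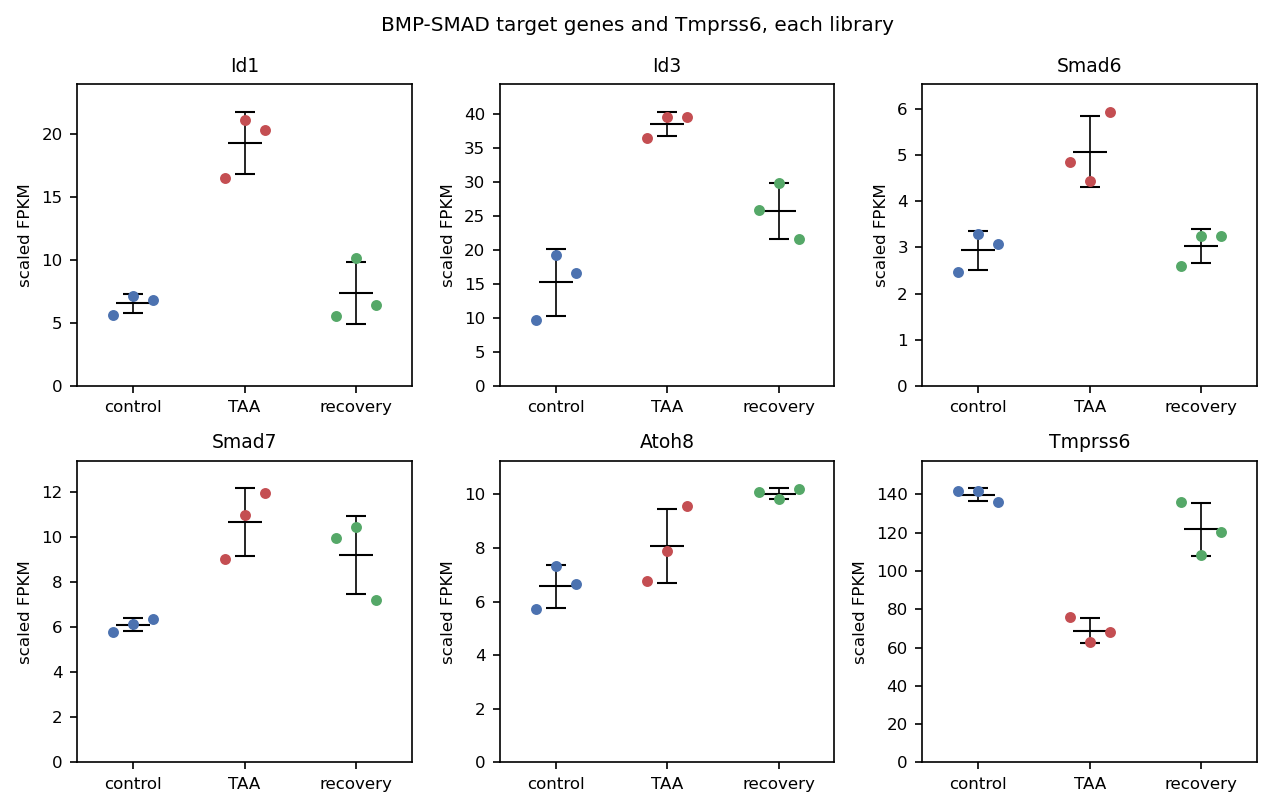
Scaled FPKM of the 5 BMP-SMAD targets and of Tmprss6 in each library, with 1 panel per gene and a vertical axis from 0 (points are libraries, bars the mean and SD of 3). Id1, Id3, Smad6 and Smad7 are above all control libraries in the 3 TAA libraries, and Tmprss6 is below them.

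Of 12 other genes of BMP-SMAD control of hepcidin, 11 were tested and Erfe, the erythroid suppressor of hepcidin, was under the filter, at no more than 0.0994 scaled FPKM in any library. In TAA against control 1 was higher and 5 were lower after scaling, but 8 were higher and 1 was lower in FPKM as deposited, so the direction of this list rested on the scaling. Over all tested genes 28.2% were higher and 26.3% lower after scaling, and 8764 and 1198 of 14094 in FPKM as deposited. The 5 lower became 3 without control 2, control 3 or TAA 3, and 4 without control 1, TAA 1 or TAA 2. Bmp2, another BMP ligand gene, was among the 5 (log2 fold change -0.58, adjusted p = 0.0430). That call was lost under the other 3 scalings (adjusted p 0.0776 to 0.858) and without control 2, control 3 or any 1 of the TAA libraries. In recovery against TAA Bmp2 passed as higher (0.83, adjusted p = 0.000678), also with quantile normalization (0.75). It did not in FPKM as deposited (0.28, adjusted p = 0.0589) or with equal column sums (0.077, adjusted p = 0.556). Tmprss6, the hepatocyte protease that restrains hepcidin, was the 1 DEG of the list. Its scaled FPKM was 142, 142 and 136 in control, 75.9, 62.6 and 68.0 in TAA and 136, 109 and 120.3 in recovery libraries. All TAA libraries were below all others. Tmprss6 was 2.04-fold lower in TAA against control (log2 fold change -1.03, 95% confidence interval -1.25 to -0.81, adjusted p = 9.95e-05) and 1.76-fold higher in recovery against TAA (adjusted p = 0.000794). The first direction held under all scalings, at -0.39 in FPKM as deposited and -0.20 with equal column sums, where it no longer passed (adjusted p = 0.0665). The second did not pass under any of the other 3 scalings, at 0.26 in FPKM as deposited, 0.20 with quantile normalization and 0.055 with equal column sums (adjusted p = 0.0727, 0.159 and 0.672).

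The IL-6-STAT3 list held 8 genes, and 7 were tested. Il6 was under the filter, at no more than 0.199 scaled FPKM in any library. In TAA against control 1 gene was higher and 3 were lower after scaling, and 3 were higher and 1 was lower in FPKM as deposited. The shares over all tested genes were 28.2% higher and 26.3% lower, and 8764 and 1198 of 14094 in FPKM as deposited. The 3 lower became 1 without TAA 1 or TAA 2 and 2 without control 2, control 3 or TAA 3. Il6ra, the IL-6 receptor subunit of hepatocytes, had a scaled FPKM of 12.4, 17.1 and 14.1 in control, 4.13, 3.98 and 3.88 in TAA and 6.84, 10.8 and 12.5 in recovery libraries. All TAA libraries were below all others, and Il6ra was 3.55-fold lower in TAA against control (log2 fold change -1.83, 95% confidence interval -2.13 to -1.52, adjusted p = 3.46e-05), also under every scaling. Saa1, a serum amyloid gene induced by IL-6, had 29.9, 23.5 and 31.5 in the TAA group and 191, 67.5 and 83.1 in the recovery group beside the control values given above, and was 5.75-fold lower in TAA against control (adjusted p = 0.0259). This call was lost under each of the other 3 scalings (adjusted p 0.0581 to 0.0717) and without any 1 of the TAA libraries, and the log2 fold change moved from -2.52 to -1.53 without control 3 and to -3.30 without control 1. Saa2, the other serum amyloid gene of the list, did not pass (log2 fold change -0.90, adjusted p = 0.495). Its log2 fold change ranged from -2.01 to 0.42 with 1 library left out. Lcn2, the siderophore-binding lipocalin, had 2.76, 4.91 and 20.4 in control, 29.1, 51.7 and 53.5 in TAA and 2.65, 13.2 and 10.4 in recovery libraries, and was 6.51-fold higher in TAA against control (adjusted p = 0.00998). Its log2 fold change moved from 2.70 to 3.51 without control 3 and to 2.10 without control 1. Control 3 was the highest control library for Saa1, Lcn2 and also Hamp, and its part in the control value of Hamp is given by leaving it out: the log2 fold change of Hamp in TAA against control was then 1.23.

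The members of uptake, export and storage included 4 genes with iron responsive elements, and these sites are shown because iron regulatory proteins bind them. In the GENCODE release 21 transcripts, a site was a C, 5 bases, the loop CAGTGN with a last base other than G, and 5 bases that pair with the first 5 (G-T pairs allowed). Each sequence has 5 more bases at either end, and capitals mark the bulged C and the loop. Such a site was in a UTR of 4 of the 10 members and of 123 of 21877 protein-coding genes (0.562%). It was in none of the 62 that were searched of the 63 other iron genes. The pattern allowed no mismatch or bulge in the 5 pairs, so an element with another stem would be missed. These genes therefore cannot be taken to lack iron responsive elements. Alas2, an erythroid enzyme of haem synthesis, stood among the erythroid markers and not in the list of haem synthesis. It was searched by name and had 1 such site in its 5′ UTR (chrX:150547459-150547485, plus strand), so the 0 of 62 also depended on where that gene was listed. In the 5′ UTR lay those of Fth1 (chr19:9982733-9982759, plus strand), Ftl1 (chr7:45459780-45459806, minus strand) and Slc40a1 (chr1:45925466-45925492, minus strand), where the element is known to govern translation. In the 3′ UTR of Tfrc, where it is known to govern mRNA stability, lay 4 sites on the plus strand of chromosome 16, at chr16:32631220-32631246, chr16:32631599-32631625, chr16:32631664-32631690 and chr16:32631711-32631737, listed in this order.
Fth1: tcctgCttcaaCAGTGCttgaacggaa
Ftl1: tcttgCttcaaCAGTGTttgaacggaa
Slc40a1: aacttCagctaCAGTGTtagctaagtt
Tfrc site 1: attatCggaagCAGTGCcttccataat
Tfrc site 2: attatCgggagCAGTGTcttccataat
Tfrc site 3: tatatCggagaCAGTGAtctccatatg
Tfrc site 4: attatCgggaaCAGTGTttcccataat
Alas2: tggttCgtcctCAGTGCagggcaacag
A match of letters is a description and does not show binding.

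Trf encodes transferrin, the plasma carrier of iron, and was the most abundant member. In scaled FPKM Trf had 4113, 3117 and 3518 in control, 3450.2, 3129 and 3156 in TAA and 4096, 3268 and 3536 in recovery libraries. The groups overlapped in every comparison, and none passed: the log2 fold change was -0.13 in TAA against control (95% confidence interval -0.53 to 0.26, adjusted p = 0.533), 0.16 in recovery against TAA (adjusted p = 0.439) and 0.023 in recovery against control (adjusted p = 0.958). The first 2 of these turned and passed under all 3 other scalings. TAA against control was then 0.50 in FPKM as deposited, 1.24 with quantile normalization and 0.69 with equal column sums (adjusted p = 0.0151, 0.000735 and 0.00311), and recovery against TAA was -0.40, -1.09 and -0.61 (adjusted p = 0.0322, 0.000289 and 0.00367). By rank, Trf was the gene of rank 12 in control, 3 in TAA and 9 in recovery libraries. Its locus is chr9:103204001-103230444.

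Tfrc encodes transferrin receptor 1, which takes iron-loaded transferrin into cells. It stood at 17.9, 14.7 and 14.8 in control, 18.3, 22.1 and 14.9 in TAA and 19.0, 20.4 and 15.9 in recovery libraries (scaled FPKM), at chr16:32608920-32632794. The groups overlapped, and no comparison passed: the log2 fold changes were 0.21 in TAA against control (adjusted p = 0.291), 0.011 in recovery against TAA (adjusted p = 0.960) and 0.22 in recovery against control (adjusted p = 0.345). TAA against control passed as higher under the other 3 scalings (0.49 to 1.03), and recovery against TAA passed as lower in FPKM as deposited (-0.55, adjusted p = 0.0119) and with equal column sums (-0.75, adjusted p = 0.00223). Against Tfr2 in the same library, however, Tfrc stood at 0.164, 0.103 and 0.123 in the control libraries, 0.385, 0.471 and 0.372 in the TAA libraries and 0.182, 0.224 and 0.178 in the recovery libraries. The groups did not overlap in this ratio of both transferrin receptors: it was highest in the TAA group, by 1.67 in mean log2 ratio over the controls, and the recovery libraries lay in between (exact permutation p = 0.1 for each comparison). With quantile normalization the groups did not overlap either, and TAA was 1.33 over the controls.

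Slc40a1 encodes ferroportin, the iron exporter and target of hepcidin. Scaled FPKM were 55.8, 65.5 and 58.5 in control, 58.5, 51.8 and 46.5 in TAA and 77.4, 59.5 and 71.2 in recovery libraries, at chr1:45908068-45926523. TAA and control overlapped, while all recovery libraries were above all TAA libraries. TAA against control did not pass (log2 fold change -0.20, 95% confidence interval -0.46 to 0.060, adjusted p = 0.167), and under the other 3 scalings it turned and passed as higher (0.44 in FPKM as deposited). Recovery against TAA passed narrowly (log2 fold change 0.40, 95% confidence interval 0.11 to 0.70, adjusted p = 0.0306), but the call was lost without TAA 2, TAA 3, recovery 1 or recovery 3 (adjusted p 0.0714, 0.0948, 0.0953 and 0.0815) and the direction turned in FPKM as deposited (-0.16). With equal column sums it passed in the other direction, as lower in recovery (-0.36, adjusted p = 0.0228). The call as higher was also lost without a filter (adjusted p = 0.0503) and without trend (0.0575). Recovery against control was 0.21 (adjusted p = 0.339). In liver the gene is known from Kupffer cells and hepatocytes, and the sums of the Kupffer cell markers were 97.0, 98.6 and 83.5 in the TAA libraries and 129.9, 143 and 182 in the recovery libraries (scaled FPKM). Fewer cells of a type and less RNA per cell cannot be told apart in bulk tissue, and the part of these cells in the result was not tested.

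Fth1 and Ftl1 encode the heavy and light chains of ferritin, the iron storage protein. The scaled FPKM of Fth1 was 328, 383 and 449 in control, 403, 466 and 499 in TAA and 573, 586 and 565 in recovery libraries, at chr19:9980598-9985098. The recovery libraries were within a narrow range above all other libraries, and TAA and control overlapped. TAA against control did not pass (log2 fold change 0.24, 95% confidence interval -0.10 to 0.58, adjusted p = 0.193), although it did under the other 3 scalings (0.88 in FPKM as deposited). Recovery against TAA passed at a log2 fold change of 0.34 (95% confidence interval 0.077 to 0.60, adjusted p = 0.0372), but not without TAA 1, TAA 2 or any 1 of the recovery libraries (adjusted p 0.0719 to 0.0990), and the direction turned in FPKM as deposited (-0.22). With quantile normalization (-0.97, adjusted p = 0.000625) and equal column sums (-0.43, adjusted p = 0.0139) it passed in the other direction, as lower in recovery. The call as higher was lost without a filter (adjusted p = 0.0613) and with all 9 libraries in 1 fit (0.0522) as well. Recovery against control, 1.497-fold, did not pass (log2 fold change 0.58, 95% confidence interval 0.28 to 0.88, adjusted p = 0.0642), but it passed when all 9 libraries shared 1 fit (adjusted p = 0.0328), with quantile normalization (0.0357) and with a filter at a mean FPKM of 1 (0.0478).

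The scaled FPKM of Ftl1 was 2063, 2755 and 2231 in control, 1586, 1701 and 1691 in TAA and 2506, 1696 and 2024 in recovery libraries, at chr7:45457944-45459884. All TAA libraries were below all control libraries, and the lowest recovery library was within the TAA range. TAA against control passed as lower (log2 fold change -0.49, 95% confidence interval -0.86 to -0.13, adjusted p = 0.0298), but the call was lost without control 2, control 3 or any 1 of the TAA libraries (adjusted p 0.0569 to 0.105), and the direction turned in FPKM as deposited (0.15) and with equal column sums (0.34). With quantile normalization Ftl1 passed in the other direction, as higher in TAA (0.99, adjusted p = 0.00299). Without a filter its adjusted p was 0.104. Recovery against TAA was 0.31 (adjusted p = 0.170), a sign that turned in FPKM as deposited (-0.26), and it passed as lower in recovery with quantile normalization (-1.03, adjusted p = 0.00426) and equal column sums (-0.46, adjusted p = 0.0318), and recovery against control was -0.19 (adjusted p = 0.611). The ratio of Fth1 to Ftl1 within a library was 0.159, 0.139 and 0.201 in the control libraries, 0.254, 0.274 and 0.295 in the TAA libraries and 0.229, 0.345 and 0.279 in the recovery libraries. All TAA and recovery libraries were above all control libraries, by 0.74 and 0.77 in mean log2 ratio (exact permutation p = 0.1 for both), and TAA and recovery overlapped (0.033, exact permutation p = 0.9). With quantile normalization these differences were 0.61, 0.67 and 0.063. Ferritin genes have many near-identical pseudogenes, and 1 of them, Ftl1-ps1, had its own row with 46.3, 60.2 and 46.5 scaled FPKM in the control libraries, so both ferritin values are uncertain by reads that such copies share.

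**Figure D4:**
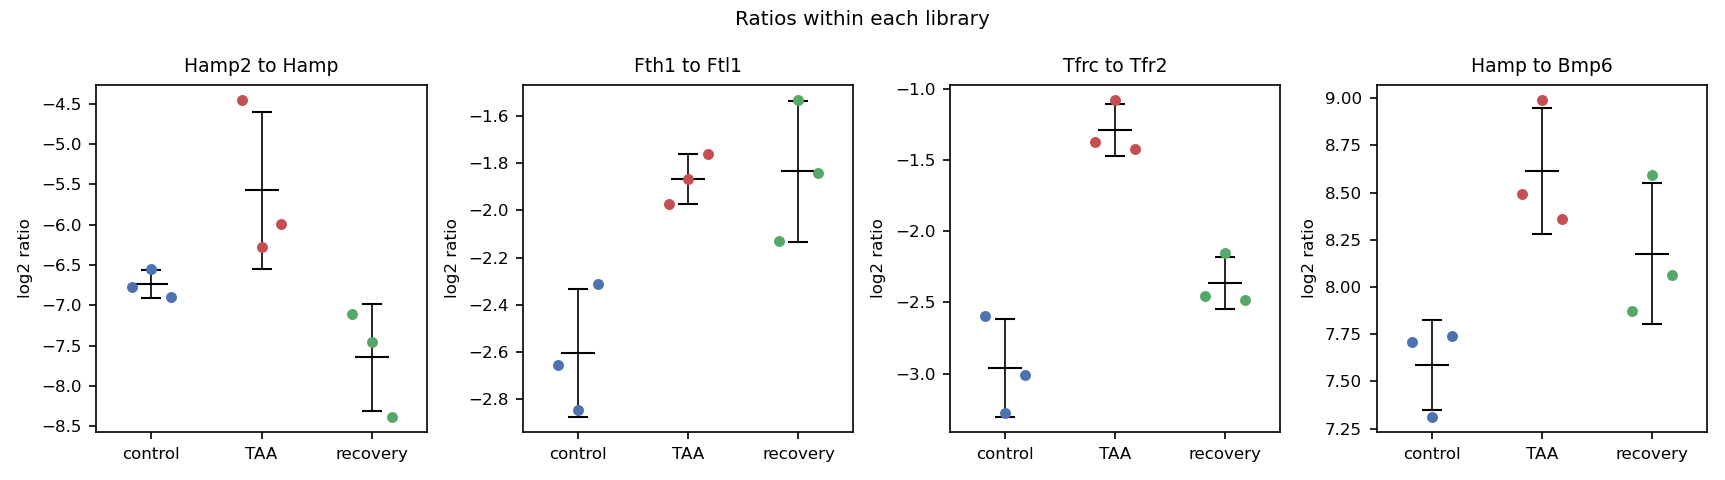
Log2 ratios of 2 members within each library, with 1 panel per ratio (points are libraries, bars the mean and SD of 3). Tfrc to Tfr2 is highest in the 3 TAA libraries, Fth1 to Ftl1 is higher in TAA and recovery than in control libraries, and Hamp2 to Hamp is lowest in recovery libraries, although its TAA and recovery libraries overlapped with quantile normalization.

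Other iron genes were counted over 10 lists with 63 genes, of which 61 were tested. In TAA against control 12 were higher and 29 were lower, with a median log2 fold change of -0.33 against 0.02 over all tested genes. Of all tested genes 28.2% were higher and 26.3% lower. In FPKM as deposited the counts were 32 higher and 4 lower, so for these lists the direction as a whole rested on the scaling. All tested genes then gave 8764 higher and 1198 lower of 14094. In recovery against TAA 24 were higher and 11 were lower (7 and 34 in FPKM as deposited). The shares over all tested genes were 24.5% and 26.0% (1141 and 8333 of 14094 in FPKM as deposited). These shares also stand beside the counts of the single lists below. In recovery against control 2 were higher and 2 were lower under all 4 scalings, but with any 1 library left out none was higher and 0 to 2 were lower. Over all tested genes 1.33% were higher and 1.38% lower there after the main scaling.

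Among 7 genes of iron import and reduction 3 were higher and 3 were lower in TAA against control (3 and 0 in FPKM as deposited). Steap4, a plasma membrane metalloreductase, had a scaled FPKM of 26.5, 20.4 and 23.6 in control, 54.1, 49.6 and 50.3 in TAA and 14.6, 17.7 and 13.8 in recovery libraries. It was 2.19-fold higher in TAA against control (adjusted p = 0.000132), and its recovery libraries were below all controls, a difference that did not pass (log2 fold change -0.61, adjusted p = 0.0666). Scara5, a ferritin receptor known from stromal cells, was 4.20-fold higher, from 0.642 ± 0.249 to 2.94 ± 0.635 scaled FPKM (mean ± SD, n = 3, adjusted p = 0.000750). Both calls held under every scaling and without any single library. Of 6 stellate cell and myofibroblast markers 6 were higher in the TAA group, and their summed scaled FPKM, led by Reln, was 29.6, 36.0 and 38.7 in the control libraries, 151, 121 and 157 in the TAA libraries and 28.9, 34.8 and 37.5 in the recovery libraries, with none of the 6 at 0 in any library. The part of these cells in the value of Scara5 was not tested.

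Of 2 ferroxidases, Heph was 2.76-fold higher, from 0.580 ± 0.282 to 1.74 ± 0.591 scaled FPKM (adjusted p = 0.00760, but 0.0704 with quantile normalization), and Cp, the ferroxidase of plasma, did not pass (log2 fold change 0.32, adjusted p = 0.131), although it passed as higher under the other 3 scalings, at 0.95 in FPKM as deposited, 1.55 with quantile normalization and 1.14 with equal column sums (adjusted p = 0.00109, 0.000501 and 0.000382). Of 9 genes of haem and haemoglobin scavenging none was higher and 5 were lower after scaling, whereas 3 were higher and none was lower in FPKM as deposited. The 5 lower became 3 without control 2, control 3 or TAA 3, and 4 without TAA 1 or TAA 2. Hp, which encodes the haemoglobin binder haptoglobin, was 2.197-fold lower in TAA against control (1679 ± 326.2 against 761 ± 121, adjusted p = 0.00183), but not under any other scaling: the adjusted p was 0.0517 in FPKM as deposited and 0.148 with equal column sums, and the direction turned with quantile normalization (0.32). Cd163, the macrophage receptor of haptoglobin-haemoglobin, had 2.67, 7.85 and 8.49 in the control group and 1.79, 2.79 and 2.03 in the TAA group and was 2.54-fold lower (adjusted p = 0.0284). The groups overlapped through control 1, the library low in Kupffer cell markers. Without control 1 the log2 fold change of Cd163 was -1.87, and the call was lost without control 2, control 3, TAA 1 or TAA 3 (adjusted p up to 0.0896). In FPKM as deposited its adjusted p was 0.167 and with equal column sums 0.255, while with quantile normalization it passed as lower (-1.58, adjusted p = 0.0155).

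Of 9 genes of haem synthesis and export 1 was higher and 6 were lower in TAA against control, and of 5 genes of mitochondrial iron 4 were lower and none was higher. In FPKM as deposited these counts were 3 higher and 2 lower for the first list and 2 higher and none lower for the second. The 1 higher of the first list was lost without control 2, control 3, TAA 1 or TAA 3. Cpox, coproporphyrinogen oxidase of haem synthesis, had a scaled FPKM of 82.2, 82.5 and 78.1 in control, 31.7, 32.4 and 30.0 in TAA and 86.6, 94.9 and 90.8 in recovery libraries. The TAA libraries were far below all others, and Cpox was 2.58-fold lower in TAA against control (log2 fold change -1.37, 95% confidence interval -1.54 to -1.19, adjusted p = 1.31e-05) and 2.89-fold higher in recovery against TAA, under every scaling and without any single library. Among 3 genes of the iron regulatory proteins 1 was higher and 1 was lower in TAA against control (2 and 0 in FPKM as deposited), and among 3 iron chaperone and ferritinophagy genes 2 were lower (0 in FPKM as deposited, with 1 higher, and 1 without TAA 2 or TAA 3).

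In recovery against control 4 other iron genes passed, and apart from Atoh8 they are named after their values were seen. Steap3, an endosomal ferrireductase, was higher (5.36 ± 0.530 in control, 3.1998 ± 0.322 in TAA and 8.72 ± 0.4996 in recovery libraries, adjusted p = 0.0310). Alas1, the first enzyme of haem synthesis, was lower (232 ± 40.4, 117 ± 20.1 and 114 ± 5.37, adjusted p = 0.0194), as was Ireb2, iron regulatory protein 2 (38.8 ± 3.57, 20.9 ± 3.96 and 24.5 ± 1.29, adjusted p = 0.0219). Without single libraries the adjusted p reached 0.118 for Steap3, 0.0823 for Alas1 and 0.0982 for Ireb2. The call of Steap3 was lost without any 1 of the 6 libraries, that of Alas1 without control 3 or any 1 of the recovery libraries, and that of Ireb2 without control 2, control 3, recovery 2 or recovery 3.

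Markers of cell types were counted as well. Over all tested genes 28.2% were higher and 26.3% lower in TAA against control (8764 and 1198 of 14094 in FPKM as deposited). In recovery against TAA these shares were 24.5% and 26.0% (1141 and 8333 of 14094 in FPKM as deposited). Of 6 hepatocyte markers 5 were lower in TAA against control (3 in FPKM as deposited, and 1 lower with 2 higher with quantile normalization), and their summed scaled FPKM, led by Alb, was 37542, 40911 and 36821 in the control libraries, 28633, 25156 and 21585 in the TAA libraries and 45956, 47840.1 and 48796 in the recovery libraries. Of the 6 Kupffer cell markers, led by Cd5l, 2 were higher in TAA against control and 0 were lower, but without control 1, the library low in these markers, 2 were higher and 4 were lower. Without control 1 all 6 recruited macrophage markers were higher, and 3 of 6 sinusoidal endothelial markers were lower with 0 higher. All 6 cholangiocyte and all 6 proliferation markers were higher. Of 6 recruited macrophage markers 4 were higher (5 in FPKM as deposited and with equal column sums, 3 with quantile normalization or without TAA 3). All 3 tested of 6 neutrophil markers were higher (2 with quantile normalization and without TAA 2 or TAA 3). Of the 6 sinusoidal endothelial markers 1 was higher (3 in FPKM as deposited and 4 with equal column sums), a call lost without any 1 of 5 libraries. Of 5 tested erythroid markers 1, Alas2, was lower, and their sum, led by Hbb-bs, was 483, 772 and 763 in the control libraries, 639, 264 and 645 in the TAA libraries and 393, 626 and 769 in the recovery libraries. None of 5 T and B cell markers (led by Cd79b) and none of 6 skeletal muscle markers (led by Acta1, with up to 5 of the 6 at 0 in a library) passed, but 1 of the muscle markers was higher without TAA 3, and 2 of the T and B cell markers were higher in FPKM as deposited and 4 with equal column sums. In recovery against TAA all 6 hepatocyte markers were higher (3 in FPKM as deposited, and 2 with 1 lower with quantile normalization). Of the Kupffer cell markers 4 were higher (0 in FPKM as deposited, with 1 lower), and of the sinusoidal endothelial markers 3 (0, with 2 lower). All 6 recruited macrophage, cholangiocyte, proliferation and stellate cell markers were lower there (5 of the last with quantile normalization). The part of these cell types in the values of the members and of the other iron genes was not tested.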

How the data were processed

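The deposited FPKM values of 9 mouse liver libraries, 3 per group, were made by the authors: 150-base paired-end reads were quality filtered, mapped to mm10 with HISAT2 (version 2.2.1) and counted per gene with featureCounts (version 1.5.0-p3). Whether counting used strand is not given in the sources used here, and replicates were taken as 1 mouse each. Depth, estimated from the steps of low FPKM values (55.8% to 66.3% came out whole within 0.08, with 16% by chance), was 26.8 to 40.4 M fragments per library.

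Scaling factors were medians of ratios over 14005 genes above 0 in all libraries. The 14094 genes whose mean FPKM reached 0.1 entered limma (version 3.58.1, R 4.3.3; eBayes with trend, no covariates) on log2(value + 0.1), in fits of the 6 libraries compared, with Benjamini-Hochberg adjustment over all tested genes. The pseudocount understates changes of low genes.  Ratios of 2 members within a library were compared by exact two-sided permutation tests. Python 3.11.15 and pandas 2.3.3 were used for the rest.

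All members are named with every value. Of the other iron genes, those that were DEGs in TAA against control and every BMP-SMAD target are named, the rest counted by list. Bmp2 and Saa2 were named as well, after their values were seen. The 5 genes most like Hamp and Hamp2 were taken by root mean square difference. Members and lists were chosen with earlier results of these data known. Trbc2 had no row, leaving 5 T and B cell markers, and Spp1 stood in 2 marker lists. Alternatives were other pseudocounts, filters, scalings (FPKM as deposited, quantile normalization and, chosen after seeing the data, equal column sums), all 9 libraries in 1 fit, eBayes without trend, a replicate block and each library left out. Ratios were also computed after quantile normalization, chosen after seeing the data.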

Additional observations from a re-analysis of the deposited data

How the results depend on the processing

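The direction of Hamp, Hamp2 and Tfr2 in TAA against control and of Hamp2 and Tfr2 in recovery against TAA, and their calls, held under every alternative run, with log2 fold changes of 1.001 to 2.35 for Hamp, 1.72 to 3.09 for Hamp2 and -1.55 to -0.63 for Tfr2 in the first comparison and -3.06 to -1.74 for Hamp2 and 0.32 to 1.13 for Tfr2 in the second. Of 480 recomputed log2 fold changes of members, 398 kept direction and call, 22 lost the call, 17 gained it and 43 turned direction.

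The members that passed in TAA against control went from 5 to 9 in FPKM as deposited, 8 with quantile normalization and 9 with equal column sums. Of all 14094 tested genes 7683 passed there, and 9962, 7028 and 11036 under these scalings. In recovery against TAA the members went from 5 to 10 with equal column sums, where Hfe, Slc40a1 and Fth1 passed in the other direction, and to 3 without a filter. Of all tested genes 7121 of 14094 passed there, then 10825 of 14094 and 7255 of 17541. In recovery against control the members that passed went from 0 to 1 with a filter at a mean FPKM of 1, 2 with quantile normalization and 2 with all 9 libraries in 1 fit. Of all tested genes 557 of 11101, 440 of 14094 and 855 of 14094 then passed. In FPKM as deposited the log2 fold change turned for Hfe (0.24), Trf (0.50), Slc40a1 (0.44) and Ftl1 (0.15) in TAA against control, for Bmp6 (-0.34), Hfe (-0.22), Trf (-0.40), Tfrc (-0.55), Slc40a1 (-0.16), Fth1 (-0.22) and Ftl1 (-0.26) in recovery against TAA, and for Hamp2 (0.049) and Hfe (0.017) in recovery against control. With equal column sums the same genes turned, at 0.43, 0.69, 0.63 and 0.34, then -0.53, -0.42, -0.61, -0.75, -0.36, -0.43 and -0.46, then 0.036 and 0.0039. With quantile normalization Bmp6 (-0.23), Trf (1.24), Slc40a1 (0.36) and Ftl1 (0.99) turned in TAA against control and Trf (-1.09), Tfrc (-0.23), Slc40a1 (-0.12), Fth1 (-0.97) and Ftl1 (-1.03) in recovery against TAA. The scalings by construction shift all genes of a library alike, apart from quantile normalization, and the cause was not tested further.

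Leaving out 1 library turned values near 0: Bmp6 in TAA against control (-0.0040 to 0.24), Tfrc in recovery against TAA (-0.13 to 0.15), and Hamp2 (-0.34 to 0.39) and Trf (-0.073 to 0.13) in recovery against control. The members passing ranged from 4 to 5 in TAA against control and 3 to 5 in recovery against TAA, and of all 14094 tested genes 6648 to 7303 and 6007 to 6473 passed. With a pseudocount of 0 and with quantile normalization all 12 differences in within-library ratios kept their sign, but with the latter that of Hamp2 to Hamp in TAA against control shrank from 1.16 to 0.10. Leaving out 1 library turned only that of Fth1 to Ftl1 in recovery against TAA (-0.12 without recovery 2 and -0.020 without TAA 1, from 0.033).

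Over all tested genes, 7683 passed in TAA against control, 7121 in recovery against TAA (10825 with equal column sums) and 381 in recovery against control, where the count was 137 without a filter, 855 with all 9 libraries in 1 fit, 151 without trend and 39 to 194 without 1 library. The share of passing genes that were higher was 51.7% in TAA against control (88.0% in FPKM as deposited, 92.2% with equal column sums), 48.5% in recovery against TAA (12.04% and 7.44%) and 49.1% in recovery against control (63.4% and 67.6%). DEGs numbered 3520, 3017 and 140 in the 3 comparisons. They numbered 1780, 1460 and 80 with a pseudocount of 1, and 2204 and 1895 with a filter at a mean FPKM of 1 in the first and second. With equal column sums they numbered 5806 and 5159 there. In recovery against control they numbered 48 without a filter, 235 with all 9 libraries in 1 fit, 85 without trend and 32 to 106 without 1 library.

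With the replicate number as a block, 5, 4 and 0 members and 7254, 6709 and 19 genes passed in the 3 comparisons, and 17 DEGs in recovery against control. Fth1 in recovery against TAA was the member that no longer passed (adjusted p = 0.0627). Same-numbered libraries did not deviate together (r -0.0705 to 0.125 over genes, against -0.113 to 0.133 for other pairs, and not every library correlated best with its own number), so the numbers were not taken as pairs. With 3 mice a group and FPKM in place of counts, a member that did not pass cannot be taken as unchanged.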

Other observations

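Among 10961 tested genes with a mean scaled FPKM of at least 1, the 5 whose centred log2 values over the 9 libraries had the smallest root mean square difference from Hamp were Eppk1 (0.165), Nmral1 (0.193), Ncoa7 (0.196), Ctss (0.201) and Epha2 (0.204), with that difference in log2 units in parentheses. Ctss, which encodes the lysosomal protease cathepsin S, stood at 23.5 ± 1.85 in control, 52.8 ± 7.20 in TAA and 40.8 ± 6.73 in recovery libraries (scaled FPKM, mean ± SD, n = 3). The 5 nearest to Hamp2 were Ctsk (0.463), Cpxm1 (0.490), Slc5a1 (0.496), Ppic (0.4996) and Grb10 (0.501). Ctsk, which encodes cathepsin K, stood at 0.472 ± 0.0480, 2.27 ± 0.984 and 0.586 ± 0.0905 in the same order. The lists shared no gene, and nothing on shared control follows from likeness over 9 libraries.

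Hmox1, the haem-degrading oxygenase, had a scaled FPKM of 5.33, 13.03 and 13.2 in the control libraries, 15.1, 13.6 and 13.6 in the TAA libraries and 17.4, 15.7 and 16.1 in the recovery libraries. After scaling all recovery libraries were above all others and control 1 was far below the rest, and no comparison passed (adjusted p = 0.202, 0.0776 and 0.2503 in TAA against control, recovery against TAA and recovery against control). In FPKM as deposited and with equal column sums, however, Hmox1 passed as higher in TAA against control (1.16 and 1.35, adjusted p = 0.0155 and 0.00473), and recovery against TAA turned and passed as lower (-0.34 and -0.54, adjusted p = 0.00923 and 0.000907). Ncoa4, the receptor that brings ferritin to lysosomes, was at 47.8, 23.9 and 21.9 in the control libraries, where control 1 was the highest, 17.1, 16.3 and 12.9 in the TAA libraries and 19.0, 16.9 and 24.1 in the recovery libraries. It was lower in TAA against control (log2 fold change -0.93, adjusted p = 0.0264). This call was lost without TAA 2 or TAA 3 and under each of the other 3 scalings (adjusted p 0.0858 to 0.742), and the log2 fold change ranged from -1.13 to -0.57 with 1 library left out. Hmox1 and Ncoa4 were chosen after their values were seen.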
